A study of Mus musculus with 2 samples.

Results

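The Fc receptor genes described here were 7 of the 32285 genes in the count tables, chosen by name: Fcer1g, Fcgr3, Fcgr1, Fcgr4, Fcgr2b, Fcrls and Fcgrt. They were read in 2 droplet libraries of microglia sorted from the lumbar spinal cord of male mice, 1 library per genotype, made to ask what a rise in 4E-BP1–dependent translation does to microglia. The control library, labelled WT, came from mice that the study's supplement gives as Eif4ebp1fl/fl, and the 4E-BP1–cKO library from Eif4ebp1fl/fl:TMEM119CreERT2 mice, in which Cre is driven by the Tmem119 promoter of microglia. The mice were 8 to 10 weeks old. The methods give 4-OHT by i.p. injection from P4 to P9 without separating the genotypes, and the number of mice behind each library is not stated. Barcodes passed with over 300 genes detected and less than 5% of UMIs from mitochondrial genes, which left 1147 of 1216 barcodes in control and 445 of 474 in 4E-BP1–cKO cells. A UMI is a molecular tag that lets each captured RNA be counted once, and levels are given as counts scaled to 1000000 UMIs of the library or group of cells (CPM).

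Fc receptors bind the constant part of antibodies. The activating IgG receptors of the mouse, encoded by Fcgr1, Fcgr3 and Fcgr4, have a ligand-binding α chain that needs the common γ chain, encoded by Fcer1g, whose ITAM motif recruits the kinase Syk after phosphorylation by Src-family kinases such as Lyn. The inhibitory receptor encoded by Fcgr2b carries an ITIM motif instead and recruits the phosphatase SHIP1, encoded by Inpp5d. Microglia, the resident macrophages of the nervous system, use these receptors to take up antibody-coated material. Fcrls encodes an Fc receptor-like protein of the mouse microglial signature, and Fcgrt encodes the heavy chain of the neonatal Fc receptor (FcRn), which pairs with β2-microglobulin (B2m) and returns IgG from endosomes.

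In GRCm38 (mm10), the build of the files, 4 of the 7 genes lie together on chromosome 1 by the RefSeq annotation. Fcgr2b (chr1:170960558-170976071), Fcgr4 (chr1:171018926-171029761) and Fcgr3 (chr1:171051169-171065915) span 105 kb, and Fcer1g (chr1:171229572-171234349) follows within 274 kb of the start of Fcgr2b. Fcrls (chr3:87250736-87263765) and Fcgr1 (chr3:96282909-96293969) lie on chromosome 3 and Fcgrt (chr7:45092993-45103822) on chromosome 7. Fcgr2b, Fcgr3 and Fcgr4 are paralogs with similar stretches of sequence, so the assignment of reads among them is uncertain.

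The sequences just before the transcript starts of these genes, as listed in the RefSeq promoter table, were searched for short motifs. Whether a match goes with the level of a member was not tested. A PU.1-type core (GAGGAA on either strand), the sequence core of the myeloid ETS factor PU.1, was present in the 250 bases before a listed transcript start of Fcgr1, Fcgr3, Fcgr4 and Fcrls, and was not found in those windows of Fcer1g, Fcgr2b and Fcgrt. The same letters occurred in 23.3% of 32851 mouse promoters of this length. A GAS motif (TTCNNNGAA) was also searched. It was found in Fcgr1 alone of the 7 members, beginning 109 bases before the listed transcript start, and in 7.02% of the same promoters. The stretches below are printed on the strand of the gene, from RefSeq, with the match in capitals, and a match is a description of letters and not a bound site. They were taken from chr3:96294007-96294036 (Fcgr1, minus strand), chr1:171059395-171059424 (Fcgr3, minus strand), chr1:171018892-171018921 (Fcgr4, plus strand) and chr3:87263651-87263680 (Fcrls, minus strand). For Fcgr3, with 2 listed starts, and for Fcrls these transcript starts lie inside the gene spans given above, so that both stretches lie within the gene and not before its outermost end.
Fcgr1, PU.1-type core: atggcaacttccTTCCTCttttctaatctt
Fcgr3, PU.1-type core: agagagtccatttccTTCCTCtttttgtag
Fcgr4, PU.1-type core: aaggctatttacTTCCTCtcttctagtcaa
Fcrls, PU.1-type core: caagtctgtaaaGAGGAAggacgtttgctt
In Fcgr1, Fcgr3 and Fcgr4, the genes of the activating α chains, the core stood on the minus strand of the gene and began within 55 bases of a listed transcript start. In Fcrls it stood on the plus strand, 144 bases before the listed transcript start. The share of all promoters with a match on a given strand and this close to the start was not computed. Fcgr3 and Fcgr4 are paralogs, so their matches are not separate observations.

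The depth was modest. The control library held 4803562 UMIs at a median of 3053 per cell, and the 4E-BP1–cKO library 1734332 UMIs at a median of 2776. No cell barcode was shared by the libraries. At least 3 of 9 microglial markers were detected in 1082 control and 401 4E-BP1–cKO cells, and at least 3 markers of border-associated macrophages in 2 and 1 cells. Summed over the list, border-associated macrophage markers were at 17.7 and 6.92 CPM, with Cd163 and Cd209f at 0 in both libraries, monocyte markers at 9.78 and 6.92 CPM, with Ly6c2 at 0, and neutrophil markers at 1.67 and 4.04 CPM, with Ly6g at 0. Several lists of other cell types summed higher, with B cell markers at 125 and 121 CPM, nearly all of it Ighm at 118 and 110 CPM, astrocyte markers at 104 and 70.9 CPM, endothelial markers at 86.4 and 38.1 CPM and oligodendrocyte markers at 67.2 and 120 CPM. Oligodendrocyte markers numbered at least 3 in 4 cells of the control library and 1 of the other, endothelial markers in 4 and 0, and T cell markers in 0 and 1. Monocyte, neutrophil, NK cell and B cell markers reached this number in 0 cells of either library, which allows a share of up to 0.262% of control and 0.674% of 4E-BP1–cKO cells. The targeted gene, Eif4ebp1, had 95 UMIs (19.8 CPM, 16 to 24.2) in control and 51 UMIs (29.4 CPM, 21.9 to 38.7) in 4E-BP1–cKO cells, in 7.32% and 9.44% of them. It was thus not lower in the 4E-BP1–cKO library, which does not check the deletion because 3′ reads can fall outside the floxed part. Tmem119, whose promoter drives the Cre, was at 433 CPM in control and 142 CPM in 4E-BP1–cKO cells. With 1 library per genotype there was no replicate check and no test between genotypes. All intervals are exact 95% intervals for counting error only, and they do not cover differences between mice, sorts or captures.

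The members took 1520 CPM of the control library and 1690 CPM of the 4E-BP1–cKO library. Fcer1g, the shared signaling chain, was the most abundant in both, with 45.3% and 48.1% of the members' UMIs. It was followed in both libraries by Fcrls and Fcgr3, then Fcgr1, Fcgr2b, Fcgrt and Fcgr4. This order compares UMIs read from the 3′ end and not divided by length, which also depend on how well each 3′ end was captured. In the plot of levels, the members span more than 2 orders of magnitude and the libraries lie close to each other for every member.

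**Figure D1:**
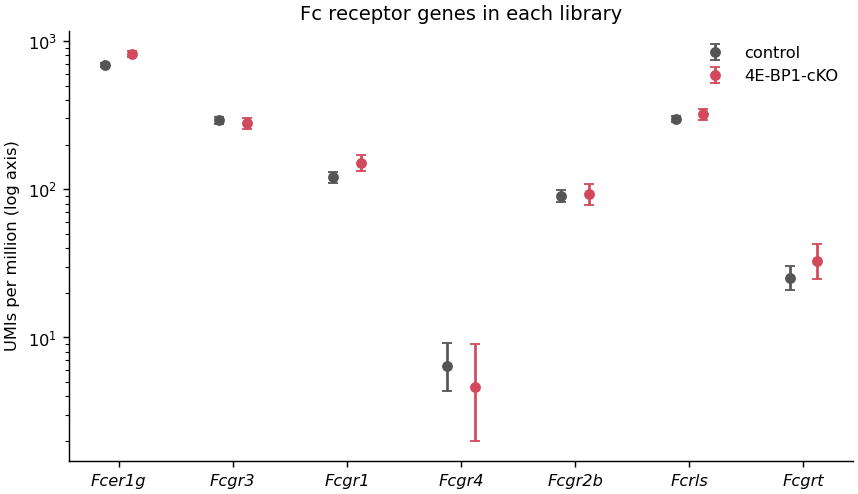
Level of each Fc receptor gene (CPM, log axis) in the control (grey) and 4E-BP1–cKO (red) libraries, with exact 95% Poisson intervals. Fcer1g is highest (688 and 815 CPM) and Fcgr4 lowest (6.45 and 4.61 CPM), and only Fcer1g and Fcgr1 have intervals that do not overlap between the libraries.

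Fcer1g, the γ chain of the activating receptors, had 3303 UMIs (688 CPM, interval 664 to 711) in control and 1413 UMIs (815 CPM, 773 to 858) in 4E-BP1–cKO cells. It was detected in 58.8% of control cells (55.9 to 61.7%) and 59.6% of 4E-BP1–cKO cells (54.8 to 64.1%). The 4E-BP1–cKO library was higher by 1.18-fold (1.11 to 1.26), with nearly the same share of cells holding the gene. After each cell was thinned to 872 UMIs, the shares were 33.9% (31.1 to 36.9%) of 1058 and 37.9% (32.9 to 43%) of 375 cells.

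Of the activating α chains, Fcgr3, a low-affinity receptor for IgG complexes, had 1399 UMIs (291 CPM, 276 to 307) in control and 483 UMIs (278 CPM, 254 to 304) in 4E-BP1–cKO cells. Fcgr1, the high-affinity receptor, had 575 UMIs (120 CPM, 110 to 130) and 260 UMIs (150 CPM, 132 to 169). Fcgr3 was detected in 45.2% and 44.5% of cells, and Fcgr1 in 29.6% (26.9 to 32.3%) and 33% (28.7 to 37.6%). The 4E-BP1–cKO library was higher for Fcgr1, by 0.32 on the log2 scale (ratio between 1.08 and 1.45), whereas the interval for Fcgr3 included no difference (0.956-fold, 0.86 to 1.06). Fcgr4, a receptor best known from monocytes and neutrophils, was close to the limit of detection. It had 31 UMIs in 29 control cells and 8 UMIs in 7 4E-BP1–cKO cells. No cells known to lack the gene were there to give its background, so Fcgr4 was not read as expressed.

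Fcgr2b, the inhibitory receptor, had 434 UMIs (90.3 CPM, 82 to 99.3) in 23.8% of control cells and 160 UMIs (92.3 CPM, 78.5 to 108) in 24.5% of 4E-BP1–cKO cells. The ratio was 1.02 (0.846 to 1.23), so that a difference above 1.23-fold lay outside the counting interval. Fcrls had 1430 UMIs (298 CPM, 282 to 314) in control and 554 UMIs (319 CPM, 293 to 347) in 4E-BP1–cKO cells, a ratio of 1.07 (0.971 to 1.18). Fcgrt, the FcRn heavy chain, was low, with 121 UMIs (25.2 CPM, 20.9 to 30.1) and 57 UMIs (32.9 CPM, 24.9 to 42.6), and its interval of the ratio included no difference (0.935 to 1.8).

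Neighbours in the order of levels mostly lay apart by more than the counting intervals. Fcrls and Fcgr3 overlapped in control cells (282 to 314 against 276 to 307 CPM) and in 4E-BP1–cKO cells (293 to 347 against 254 to 304 CPM). Fcgr1 and Fcgr2b did not overlap in either library. Most cells with a member held few copies. The median cell with Fcer1g held 3 UMIs of it in control and 4 in 4E-BP1–cKO cells, up to 46 and 21 UMIs. The medians were 2 UMIs for Fcgr3 and Fcrls and 1 UMI for Fcgr1 and Fcgr2b in both libraries.

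Of the 5 members with at least 200 UMIs over both libraries, 0 differed by more than 1.5-fold between the libraries. Among all 4887 genes with that many UMIs, 215 did (4.40%), 58 higher and 157 lower in the 4E-BP1–cKO library, and the median log2 ratio was -0.03. The members' log2 ratios of 4E-BP1–cKO to control, with a pseudocount of 1 CPM, were 0.32 for Fcgr1, 0.24 for Fcer1g, 0.10 for Fcrls, 0.03 for Fcgr2b and -0.06 for Fcgr3. Fcgrt (0.37) and Fcgr4 (-0.41) had under 200 UMIs. The interval excluded a ratio of 1 for 2 of the 5 members, Fcer1g and Fcgr1, as it did for 33.6% of all genes. The ratios were also averaged with equal weight over clusters of cells, described further on, that had at least 20 cells in each library. The log2 ratio of Fcer1g was then -0.15 and that of Fcgr2b 0.38, so the direction for Fcer1g changed. This average left out cluster 9, with 16 4E-BP1–cKO cells, and rests in part on few UMIs. In the 4E-BP1–cKO library, clusters 4 and 8 held 9 and 12 UMIs of Fcer1g.

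**Figure D2:**
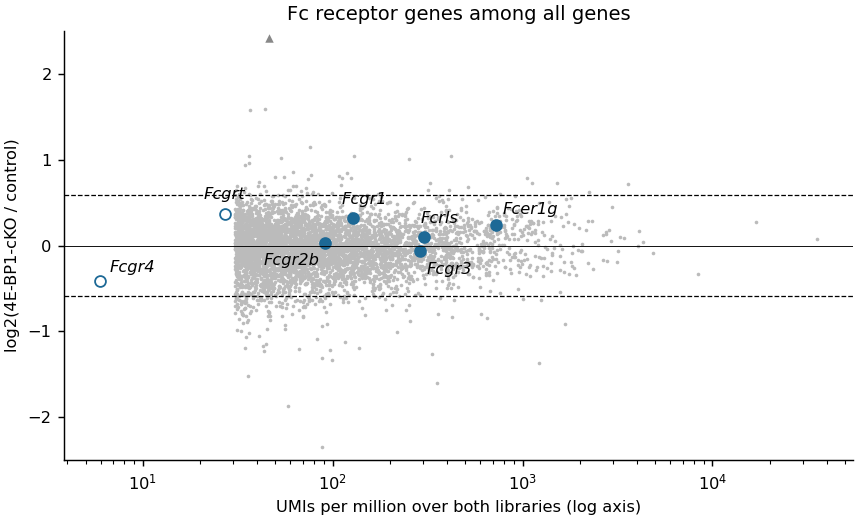
Log2 ratio of 4E-BP1–cKO to control against the level over both libraries (log axis) for the 4887 genes with at least 200 UMIs (grey) and the Fc receptor genes (blue, open where a member had fewer UMIs). The dashed lines mark 1.5-fold, the triangle at the edge of the axis stands for 1 gene beyond it, and every member lies between the lines.

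The partners of these receptors were described from lists of signaling genes. The adaptors and proximal kinases had 7 of 10 genes with at least 200 UMIs, the downstream effectors 18 of 21, the inhibitory phosphatases and attenuators 6 of 10, and the partners and traffic genes of FcRn 3 of 4. In all 4 lists, 0 of these genes passed 1.5-fold, beside 4.40% of all genes with that many UMIs. With lists this short and a share this low, a count of 0 does not set them apart. The list medians were -0.08, -0.04, -0.19 and 0.10 on the log2 scale, beside -0.03 for all genes.

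Tyrobp, the ITAM adaptor DAP12 of other microglial receptors, was at 806 CPM in control and 861 CPM in 4E-BP1–cKO cells. Syk, the kinase that binds the phosphorylated ITAM, was at 224 and 234 CPM. Lyn, the Src-family kinase upstream of it, was at 1340 and 1130 CPM, which is a log2 ratio of -0.24. Every one of them was thus well detected in microglia of both genotypes. On the inhibitory side, Inpp5d was at 977 and 867 CPM and Ptpn6, which encodes the phosphatase SHP-1, at 95.3 and 119 CPM. B2m, the FcRn light chain that also serves MHC class I, was at 929 and 978 CPM, and so many times more abundant in UMIs than Fcgrt. The lists' largest absolute log2 ratio among genes with at least 200 UMIs was -0.43 (Fyn, 51 and 37.5 CPM).

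The other Fc receptor genes were near or at the floor, and 0 of 12 reached 200 UMIs. Fcer1a and Ms4a2, for IgE, and Fcamr, Pigr and Fcmr, for IgM and IgA, had 0 UMIs in either library, which allows up to 3 UMIs of each. Fcer2a, also a receptor gene for IgE, had 2 UMIs in control and 1 in 4E-BP1–cKO cells. The most abundant was Fcrl1, a receptor-like gene of B cells, with 90 UMIs in control and 17 in 4E-BP1–cKO cells. Ighm, the gene of the IgM heavy chain, had 567 and 190 UMIs. Their source was not tested.

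Activating and inhibitory receptors were next set against each other. Summed over the cells, the 3 activating α chains had 4.62 UMIs (4.16 to 5.14) for each Fcgr2b UMI in control and 4.69 (3.95 to 5.6) in 4E-BP1–cKO cells. The difference in balance was smaller than counting error. It rests on 3′ capture of each gene and is not a ratio of proteins. The γ chain exceeded the α chains that need it, with 1.65 Fcer1g UMIs per α chain UMI (1.56 to 1.74) in control and 1.88 (1.72 to 2.06) in 4E-BP1–cKO cells. Between the α chains, Fcgr3 had 2.43 UMIs per Fcgr1 UMI (2.21 to 2.69) in control and 1.86 (1.59 to 2.17) in 4E-BP1–cKO cells. These last intervals did not overlap.

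In single cells, an activating α chain and Fcgr2b were both detected in 19.9% of control cells (17.6 to 22.3%) and 19.6% of 4E-BP1–cKO cells (16 to 23.5%). An α chain without Fcgr2b was found in 33.8% and 33.9% of cells, Fcgr2b without an α chain in 3.92% and 4.94%, and neither in 42.4% and 41.6%. Fcgr2b was therefore rarely seen alone in this count. Among control cells with Fcgr2b, 83.5% (78.6 to 87.7%) also had an α chain, against 44.4% (41.1 to 47.8%) of cells without it. Deep cells hold more of every gene, and after thinning to 872 UMIs the shares were 29.6% (19.3 to 41.6%) and 24.2% (21.6 to 27%) in control and 25.8% (11.9 to 44.6%) and 26.5% (21.9 to 31.5%) in 4E-BP1–cKO cells. At equal depth, then, joint detection of α chains and Fcgr2b beyond that of the other cells was not detectable.

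The γ chain was set against the α chains next. It was detected in more thinned cells than Fcgr2b, 359 against 71 in control and 142 against 31 in 4E-BP1–cKO cells. Whether it differed from Fcgr2b in joint detection with α chains was not tested. Fcer1g was detected in 48.1% (41.9 to 54.3%) of thinned control cells with an α chain and in 29.3% (26.2 to 32.6%) of those without one. In the 4E-BP1–cKO library the shares were 53.5% (43.2 to 63.6%) and 32.2% (26.8 to 38.1%). In both libraries, cells with a UMI of an activating receptor thus more often had one of its signaling chain at equal depth. Thinning evens depth and not the state of the cells. Fcer1g, Fcgr3 and Fcgr1 were each higher in the ribosome-rich clusters described below, and joint detection within such cells was not tested. No gene outside the members was set beside Fcer1g in this count.

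The members differed far more between states of the cells than between the libraries. The cells were clustered without the members and their pathway genes, which gave 9 clusters of both libraries, numbered by size and given no cell type names. Ribosomal protein genes took under 3% of a median cell's UMIs in clusters 1, 2, 4 and 8 (1.13 to 1.53%) and over 3% in clusters 3, 5, 6, 7 and 9 (4.34 to 18.9%). Over all cells of the ribosome-rich against the ribosome-poor clusters, Fcer1g was at 971 against 223 CPM, which is 4.36-fold (3.97 to 4.8). Fcgr3 was at 369 against 125 CPM, or 2.96-fold (2.6 to 3.38). Fcgr2b was at 114 against 45 CPM (2.53-fold, 2.03 to 3.18) and Fcgr1 at 158 against 66.5 CPM (2.38-fold, 1.99 to 2.87). Fcrls differed least, at 362 against 187 CPM (1.93-fold, 1.73 to 2.16). The 758 ribosome-rich and 834 ribosome-poor cells also differed in depth, and within the middle depth range of 2040 to 4370 UMIs the ratios were 6.69 for Fcer1g, 2.61 for Fcgr3, 2.51 for Fcgr2b, 2.76 for Fcgr1 and 1.73 for Fcrls.

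**Figure D3:**
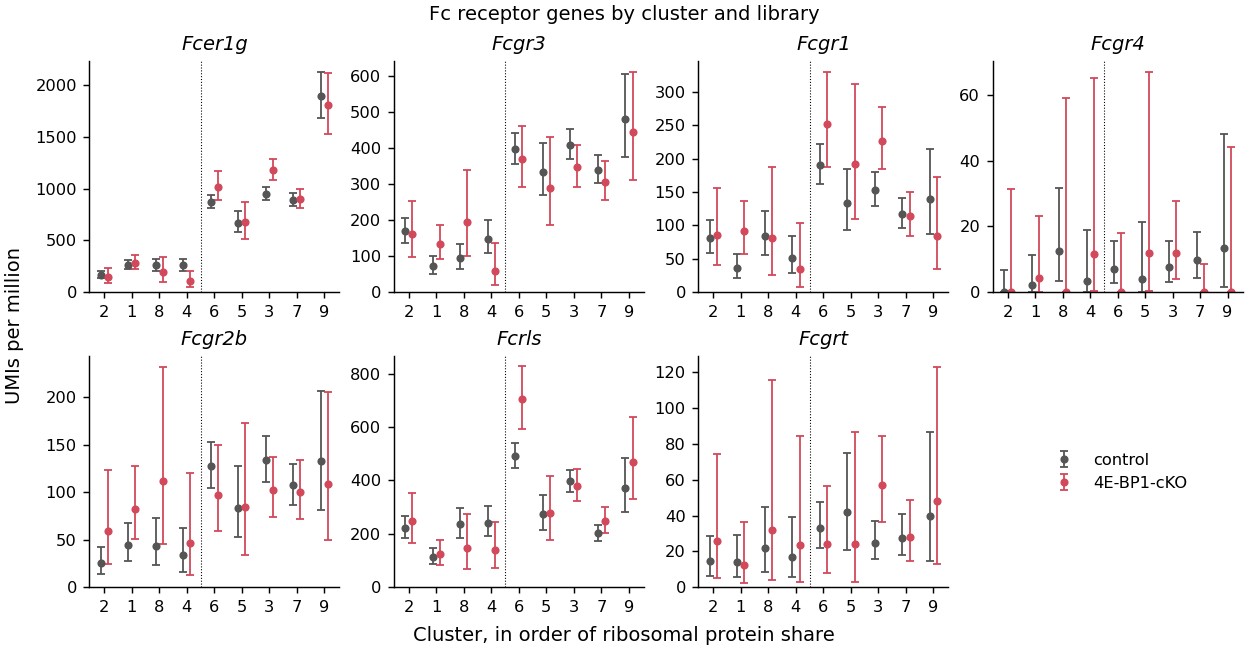
Level of each Fc receptor gene (CPM) in 9 clusters ordered by their median ribosomal protein share, in the control (grey) and 4E-BP1–cKO (red) libraries, with exact 95% Poisson intervals. Clusters 2, 1, 8 and 4, left of the dotted line, lie below the others for Fcer1g in both libraries, cluster 9 is highest for Fcer1g, and cluster 6 is highest for Fcrls.

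Fcer1g ranged from 160 CPM in cluster 2 to 1870 CPM in cluster 9, 11.7-fold, and the ranges of the ribosome-poor (160 to 267 CPM) and ribosome-rich clusters (673 to 1870 CPM) did not overlap. Cluster 9, whose leading genes were Apoe, Lyz2 and ribosomal protein genes, held 42 cells. Cluster 5 was shallow, at a median of 757 UMIs, and still had 673 CPM of Fcer1g (589 to 765). In the ribosome-rich clusters 3, 6, 7 and 9, Fcer1g was detected in 96.9%, 98.1%, 98.7% and 97.6% of cells. In the shallow cluster 5, also ribosome-rich, it was detected in 42.9%, within the 27.6 to 44.5% of the ribosome-poor clusters.

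Fcgr3 ranged from 92.3 CPM in cluster 1 to 466 CPM in cluster 9, and Fcgr2b from 31.1 CPM in cluster 2 to 124 CPM in clusters 3 and 9. For Fcgr1 the order differed. It was highest in cluster 6 (202 CPM, 176 to 232), at 120 CPM (79.6 to 173) in cluster 9, and lowest in cluster 4 (47.1 CPM). The interval of cluster 6 overlapped those of clusters 3 (176 CPM, 154 to 200) and 5 (147 CPM, 110 to 194). Fcrls was likewise highest in cluster 6, at 532 CPM (489 to 578), and lowest in cluster 1, at 117 CPM (93.4 to 144). Cluster 7, led by Cxcl2, Mt1 and Lpl, was ribosome-rich but had only 216 CPM of Fcrls (192 to 242), within the range of the ribosome-poor clusters. The γ chain was thus highest where the ribosomal share was. The highest values of Fcgr1 and Fcrls were in cluster 6, the ribosome-rich cluster with the lowest ribosomal share (4.34%). Counting intervals did not set this peak apart from clusters 3 and 5 for Fcgr1. For Fcrls they did not set it apart from cluster 9 (406 CPM, 329 to 497). Fcgrt stayed between 13.6 CPM in cluster 1 and 42.8 CPM in cluster 9, and Fcgr4 between 0 and 10.4 CPM.

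The genes whose levels followed each member most closely over the 9 clusters were found by Pearson's r. For Fcer1g they were Mrpl52, Tomm6 and Ndufa2 (r = 0.993, 0.993 and 0.992), small nuclear-encoded mitochondrial proteins. For Fcgr1 they were Selplg (0.986), Serinc3 (0.975) and Cx3cr1 (0.956), the fractalkine receptor by which the cells were sorted. For Fcgr2b they were Cd68 (0.989), a lysosomal glycoprotein, Rabac1 (0.963) and Lgals3bp (0.960). Fcgr3 was nearest to Cebpzos (0.987), the chemokine gene Ccl6 (0.982) and Ywhah (0.981), and Fcrls to the microglial receptor gene Gpr34 (0.971), Cd37 (0.952) and Clec4a2 (0.950). Among the members themselves, r ran from 0.64 (Fcgr2b with Fcrls) to 0.96 (Fcer1g with Fcgr2b). The 9 points share cells, depth and total RNA, and these values are descriptions.

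**Figure D4:**
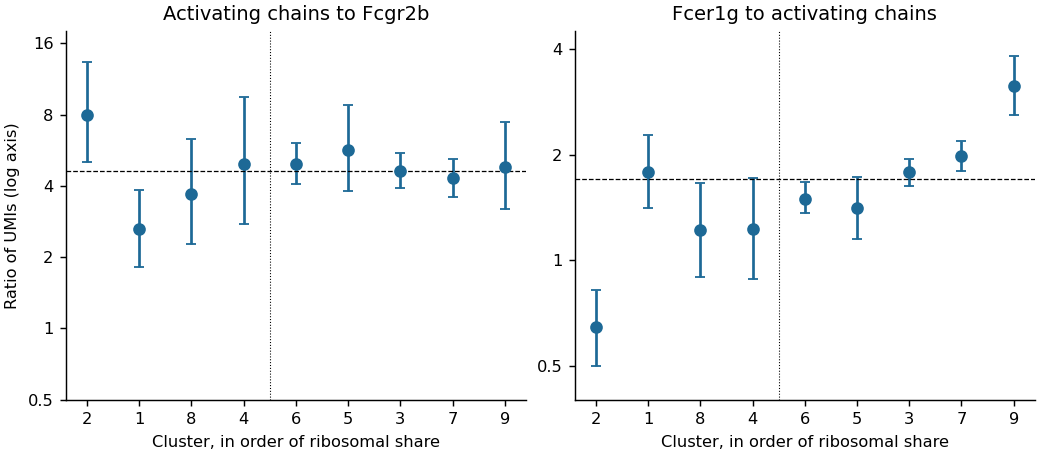
Ratio of activating α chain UMIs (Fcgr1, Fcgr3 and Fcgr4) to Fcgr2b UMIs and ratio of Fcer1g UMIs to α chain UMIs in each cluster, both libraries summed, on log axes, with exact 95% intervals and the ratio over all cells dashed. Cluster 1 (2.62) lies below and cluster 2 (8) above the other clusters in the first ratio, and cluster 9 (3.14) is highest in the second.

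The balance of activating and inhibitory receptors was near its overall value of 4.64 (4.24 to 5.08) in 7 of 9 clusters, whose intervals included it. The exceptions were both ribosome-poor. Cluster 1 had 2.62 α chain UMIs per Fcgr2b UMI (1.82 to 3.83, from 42 Fcgr2b UMIs) and cluster 2 had 8 (5.07 to 13.3, from 21). In cluster 1 the control and 4E-BP1–cKO libraries had 2.5 and 2.75, and in cluster 2 they had 9.93 (5.72 to 18.6) and 4.14 (1.78 to 11.2). By depth, the shallowest of 3 equal groups of cells had 4.14 (2.74 to 6.44) in control. In 4E-BP1–cKO cells it had 1.9 (1.08 to 3.45, from 20 Fcgr2b UMIs). The middle group had 5.16 and 5.15, and the deepest 4.57 and 5.08. The deepest group held 1586 of the 2005 α chain UMIs of the control library, so the sums over all cells mostly describe deep cells. The γ chain was scarce relative to its α chains in cluster 2, at 0.643 (0.5 to 0.824), and most abundant in cluster 9, at 3.14 (2.59 to 3.82), beside 1.71 (1.63 to 1.79) over all cells.

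The ribosomal protein share of a cell was then used directly, by splitting all cells into 3 groups of equal size (low, middle and high) at 1.5% and 4.7%. In the control library, the high group had 5.37-fold more Fcer1g (4.68 to 6.18) than the low group, 3.55-fold more Fcgr2b (2.52 to 5.14), 3.15-fold more Fcgr3 (2.64 to 3.78), 2.31-fold more Fcgr1 (1.79 to 3.03) and 1.71-fold more Fcrls (1.47 to 1.99). In the 4E-BP1–cKO library the ratios were 7.36 (5.56 to 9.95), 2.74 (1.53 to 5.32), 2.89 (2.08 to 4.12), 2.26 (1.47 to 3.64) and 2.47 (1.81 to 3.42). All 5 members with at least 200 UMIs were over 1.5-fold higher in both libraries, against 20.1% of 4801 genes in control and 21.6% in 4E-BP1–cKO cells, ribosomal protein genes left out. Of the members with fewer UMIs, Fcgrt had 64 UMIs in the high and 21 in the low group of the control library (1.61-fold, 0.972 to 2.78) and 37 and 6 in the 4E-BP1–cKO library (2.13-fold, 0.893 to 6.19), while Fcgr4 had 17 and 3 and then 5 and 0. The median gene was lower in the high group, at a log2 ratio of -0.25 and -0.27. Tyrobp, the other ITAM adaptor, was higher by 5.79-fold and 5.6-fold and B2m by 3.88-fold and 4.58-fold. Microglial marker genes differed among themselves. Cx3cr1 was higher by 2.76-fold and 2.56-fold, and Csf1r, the receptor gene that maintains microglia, was at 1.27-fold and 1.14-fold.

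Not all of this was a smooth rise. Along 10 groups of equal size in order of ribosomal share, Fcer1g of the control library was between 156 and 303 CPM in the lowest 5 groups, 568 CPM in the next and 1330 CPM in the last. Fcgr3 reached 428 CPM in group 8 and was at 399 CPM in the last. Fcrls was highest in groups 6 and 7, at 400 CPM in each, and was at 289 CPM in the last. Its level thus did not follow the share to the top, unlike that of Fcer1g. The lower limit ran through a dense part of the distribution, with 267 cells within 0.25 percentage points of it and 42 cells that close to the upper one.

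**Figure D5:**
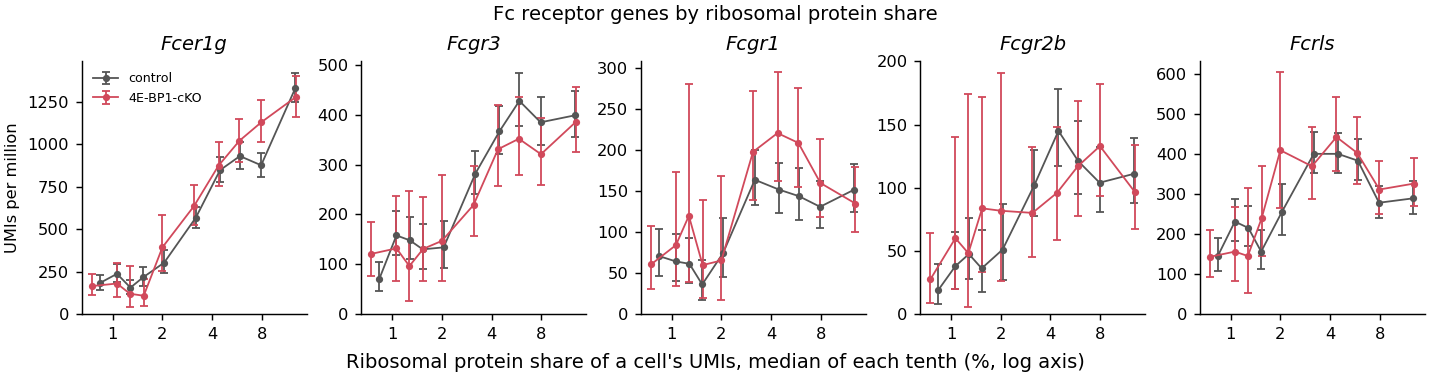
Level of 5 Fc receptor genes (CPM, exact 95% Poisson intervals) in 10 equal groups of cells by ribosomal protein share, at the median share of each group (log axis), in the control (grey) and 4E-BP1–cKO (red) libraries. Fcer1g climbs to 1330 and 1280 CPM in the last group, whereas Fcrls peaks in the middle groups.

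Other properties of the cells moved with the ribosomal share. In the control library, Malat1, a nuclear RNA, took 48700 CPM in the low group and 25700 CPM in the high group, the median depth was 2832 and 5482 UMIs, and the median share of immediate early genes was 1.33% and 2.25%. In clusters 1, 2, 4 and 8, Malat1 took 43000 to 58600 CPM, and in the others 18200 to 33200 CPM. Their part in the levels of the members was not tested. Depth, as the deepest against the shallowest of 3 equal groups, went with 2.13-fold more Fcer1g (1.83 to 2.49) in control and 1.56-fold more (1.28 to 1.91) in 4E-BP1–cKO cells. Fcgr2b had 1.78-fold more (1.22 to 2.7) in the former and 0.963-fold (0.595 to 1.64) in the latter. The deepest group also had a higher median ribosomal share than the shallowest, 5.33% against 2.02% in control and 6.3% against 1.8% in 4E-BP1–cKO cells. These ratios are therefore not those of depth alone.

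The share of immediate early genes, which rise when microglia are stimulated or dissociated, went with smaller differences in the 5 members with at least 200 UMIs. In the control library Fcgr3 was 1.36-fold higher (1.2 to 1.55) in the high than in the low of 3 equal groups by this share, and Fcer1g was at 1.08-fold (0.999 to 1.18). The inhibitory Fcgr2b was at 1.35-fold (1.07 to 1.71) there, Fcgr1 at 1.24-fold (1.01 to 1.53) and Fcrls at 0.906-fold (0.799 to 1.03). In the 4E-BP1–cKO library Fcgr3 was at 1.16-fold (0.89 to 1.52), Fcer1g at 0.986-fold (0.85 to 1.15) and Fcrls at 0.616-fold (0.495 to 0.77). Fcgr2b was at 0.897-fold (0.572 to 1.45) and Fcgr1 at 1-fold (0.709 to 1.45) in that library. None of the 5 members with at least 200 UMIs passed 1.5-fold upward in either library, against 7.08% of genes in control and 15.5% in 4E-BP1–cKO cells. With 5 genes and shares this low, finding none does not set the members apart. Downward, Fcrls passed 1.5-fold in the 4E-BP1–cKO library, and the share of all genes that did so was not computed. Fcgrt, with fewer UMIs, had 46 in the high and 31 in the low group of the control library (1.31-fold, 0.813 to 2.14). In the 4E-BP1–cKO library it had 45 and 3 (4.22-fold, 1.35 to 21.2).

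The libraries held these states in different proportions. The group of cells with high ribosomal share made up 30.6% of control but 40.4% of 4E-BP1–cKO cells, and the group with high early-gene share 28.4% and 46.1%. Within the groups by ribosomal share, Fcer1g was at 195 and 158 CPM in the low one (ratio 0.809, 0.585 to 1.1), 542 and 582 CPM in the middle (1.07, 0.933 to 1.23) and 1050 and 1160 CPM in the high one (1.11, 1.03 to 1.19). By early-gene share, the ratio of Fcer1g was 1.22 (1.05 to 1.4), 1.26 (1.11 to 1.42) and 1.11 (1.01 to 1.21) from the low to the high group. By depth, it was 1.47 (1.15 to 1.88), 1.58 (1.36 to 1.84) and 1.08 (1 to 1.16). The interval lay above 1.18, the Fcer1g ratio over all cells, in the middle depth group. It lay below 1.18 in the high depth group and in the low group by ribosomal share, and included it in all other groups. Whether the proportions of these groups account for the difference between the libraries was not tested. In all 3 groups by ribosomal share, Fcgr1 was higher in the 4E-BP1–cKO library. The ratios were 1.18 (0.711 to 1.89), 1.32 (0.998 to 1.72) and 1.15 (0.947 to 1.4), and each of these intervals included a ratio of 1. Over the groups by early-gene share, the ratio of Fcgr1 was 1.46 (1.01 to 2.05), 1.14 (0.849 to 1.52) and 1.18 (0.952 to 1.45). Over the groups by depth it was 0.952 (0.485 to 1.78), 1.83 (1.28 to 2.58) and 1.16 (0.975 to 1.38). The middle depth group, with the highest of these ratios for Fcgr1 and Fcer1g, held 53 and 267 of their UMIs in the 4E-BP1–cKO library. The share of all genes past 1.5-fold in that group was not computed. There Fcgr2b was at 1.51 (0.918 to 2.42), Fcgr3 at 1.36 (1.04 to 1.76) and Fcrls at 0.906 (0.706 to 1.15). Fcgr3 was at 0.983, 0.865 and 0.901 and Fcgr2b at 1.23, 0.951 and 0.947 in the groups by ribosomal share, from low to high, with every interval including 1.

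Between clusters, Fcgr2b was the member whose contrast differed most between the libraries. It was 3.33-fold higher (2.53 to 4.45) in the ribosome-rich clusters of the control library, at 119 against 35.9 CPM, and 1.33-fold higher (0.917 to 1.97) in those of the 4E-BP1–cKO library, at 99.5 against 74.8 CPM. The latter rests on 38 UMIs in 196 ribosome-poor cells. Between the high and low groups by ribosomal share, the ratios of 3.55 and 2.74 had overlapping intervals. The contrast between ribosome-rich and ribosome-poor clusters was 4.12 (3.7 to 4.59) and 5.11 (4.19 to 6.28) for Fcer1g in control and 4E-BP1–cKO cells. It was 3.13 and 2.53 for Fcgr3, 2.39 and 2.28 for Fcgr1 and 1.79 and 2.45 for Fcrls.

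Fcgr1 is a known interferon target, and cells with at least 3 detected interferon-stimulated genes were set apart, 48 from control and 27 from the 4E-BP1–cKO library. These cells were deep, at a median of 9270 and 8563 UMIs, so the comparison was made among the deepest of 3 equal groups of cells. There Fcgr1 was at 138 CPM (105 to 178) in 40 such control cells and 144 CPM (130 to 159) in the 344 others, and at 135 CPM (90.7 to 194) and 173 CPM (148 to 202) in 22 and 125 cells of the 4E-BP1–cKO library. Fcgr1 was therefore not detectably higher in the cells with interferon-stimulated genes. For the other members, Fcer1g was at 974 CPM (882 to 1070) in the 40 control cells and 808 CPM (774 to 843) in the others, and at 957 (830 to 1100) and 880 (821 to 942) CPM in the 4E-BP1–cKO library, while the ribosomal share was 6.72% against 5.14% and 7.47% against 6.17%.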

How the data were processed

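scRNA-Seq was analysed for 2 libraries of sorted spinal microglia, 1 per genotype. The authors aligned the reads to mm10 using Cell Ranger count (8.0.1, as the count tables' headers give it) and deposited the UMI counts as raw whole numbers, without normalization. The annotation release and the use of intronic reads are not given in the sources used here. The 7 genes and the gene lists were chosen with earlier results of these data known.

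The kept barcodes had over 300 genes detected and less than 5% of UMIs from mitochondrial genes. Doublets were not removed, since Scrublet (scanpy 1.11.5) marked 4 control and 11 4E-BP1–cKO cells. The paper gives matching limits on genes and mitochondrial RNA, removed doublets with scDblFinder and kept fewer cells of both genotypes. The cells used here therefore include barcodes that the authors left out. Clusters were made with SCTransform (sctransform 0.4.2), RPCA integration, 20 principal components and a resolution of 1.4 in Seurat 5.3.0 under R 4.3.3, leaving the members and pathway genes out of the clustering. UMIs were summed over cells and scaled to the total. Log2 ratios used a pseudocount of 1 CPM. UMI counts had exact Poisson intervals, ratios exact conditional intervals and shares Clopper-Pearson intervals, all at 95%. Shares were also computed after each cell was thinned to 872 UMIs, the 10th percentile, and 89 control and 70 4E-BP1–cKO cells were too shallow. Free RNA was not estimated, since empty droplets were not used here. The steps used Python 3.11.15, numpy 2.4.6, scipy 1.17.1 and pandas 2.3.3, and were tested on simulated data.

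Named beside the members were Tyrobp, Syk, Lyn, Inpp5d, Ptpn6, B2m, list genes with at least 200 UMIs past 1.5-fold (none) and, for each member with that many UMIs, the 3 nearest genes over the clusters. Fyn, Fcrl1, Ighm, Malat1, Csf1r, Tmem119, Eif4ebp1 and the leading genes of clusters 7 and 9 were named after their values were seen. Promoter sequences and positions were taken from RefSeq (GRCm38.p6), in which all 7 genes were matched. Results were recomputed with 10% allowed for mitochondrial UMIs, with at least 500 genes, without marked doublets, after thinning, with TMM factors (edgeR 4.0.16), with ribosomal protein and mitochondrial genes left out of the total, with 10 CPM as pseudocount, as averages over clusters, with no minimum of UMIs, with a lower fold limit, and with 3 other clusterings (a resolution of 0.8, all genes, no integration). No test between genotypes was made, because cells are not replicates.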

Additional observations from a re-analysis of the deposited data

How the results depend on the processing

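In the alternatives listed above, the count of members past 1.5-fold stayed 0, also without a minimum of UMIs, and with a lower fold limit it was 1 (Fcgr1), where 1133 of 4887 genes passed. The count of all genes past 1.5-fold was 215 with the main settings. It was 120 with 10 CPM as pseudocount, 573 as averages over clusters and 894 after thinning. Over 8 alternatives, the log2 ratio of 4E-BP1–cKO to control ran from 0.28 to 0.46 for Fcgr1, from -0.07 to -0.02 for Fcgr3, from 0.01 to 0.38 for Fcgr2b, from -0.15 to 0.31 for Fcer1g and from -0.06 to 0.21 for Fcrls. The mean over clusters was the lowest value for Fcer1g and Fcrls. Fcgrt reached 1.34 after thinning, and Fcgr4 ran from -0.73 to 0.24, both on few UMIs. The ratio of activating to inhibitory UMIs after thinning was 4.19 in control and 3.61 in 4E-BP1–cKO cells. Thinning draws UMIs at random, gives each cell the same weight and leaves out the shallowest cells. The value of 3.61 lay below the interval of 3.95 to 5.6 from the main settings. The control value and the ratios of both libraries under the other alternatives lay within their intervals. The log2 ratio of Fcer1g between ribosome-rich and ribosome-poor clusters was 2.12 and stayed between 2.10 and 2.12 in the other clusterings. Among alternatives chosen after seeing the data, it was 2.73 in cells of middle depth, 2.35 in the 4E-BP1–cKO cells alone and 2.21 with ribosomal protein and mitochondrial genes left out of the total. The cause of these shifts was not tested. No paired analysis was possible because each genotype had 1 library. Depth limited Fcgr4 and Fcgrt, which had under 200 UMIs, and leaving out a replicate was not possible with 1 library per genotype.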
